A study of Homo sapiens with 12 samples.

Results

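Small nucleolar RNA (snoRNA) host genes are genes that carry snoRNAs in their introns. The members were found by name in the count table: every entry whose symbol is SNHG followed by digits only, plus GAS5, ZFAS1, EPB41L4A-AS1, CYTOR, DANCR, TAF1D, EIF4A2, RACK1, EEF2 and TPT1. This gave 35 of 58735 entries, since SNHG28 occurs on 2 of them, and the 34 symbols split into 24 of the SNHG series and 10 chosen by name. Of the 35 entries, 28 had enough counts to be tested and 7 did not.

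The cells were MDA-MB-468, a human breast cancer line of the triple-negative type, and poly(A)-selected RNA was sequenced from 4 groups of 3 libraries lettered A, B and C. The doc8 and doc24 groups received 10 nM docetaxel, a drug that stabilises microtubules, for 8 and 24 h. The Combo group received 5 µM tazemetostat, an inhibitor of the histone methyltransferase EZH2, for 5 days and then 5 µM tazemetostat with 5 µM ipatasertib, an AKT inhibitor, for 24 h in medium with 2% FBS. The DMSO group received the solvent. Per the labels the docetaxel cultures stood in 10 cm plates and the Combo cultures in 6 cm plates. The hours, the serum and the plates of the DMSO cultures are not stated, and no group with tazemetostat or ipatasertib alone was analysed here. Treatment, serum, plate and hours can therefore not be told apart in a comparison with DMSO. Nothing in the labels ties the letters to separate cultures. The spread that the tests use is that between libraries and may be technical. In RNA from whole cultures, fewer cells of a type and less RNA per cell cannot be told apart.

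A snoRNA host transcript is spliced, its introns are trimmed to release snoRNAs, and the joined exons remain as an mRNA or as a noncoding RNA. Box C/D snoRNAs guide 2′-O-methylation of ribosomal RNA and box H/ACA snoRNAs guide pseudouridylation, while the related scaRNAs act on spliceosomal RNAs in Cajal bodies. Many host genes start with a 5′ terminal oligopyrimidine (TOP) tract like the genes of ribosomal proteins, and several noncoding hosts, GAS5 among them, are substrates of nonsense-mediated decay, which removes their spliced RNA when it is translated. The counts are of reads from poly(A) RNA over the host genes. Many of the snoRNAs also lie within bases that GENCODE annotates as exonic in some transcript of the host, so unspliced host RNA and snoRNA reads could be among the host's counts, and their share was not tested.

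RefSeq places 11 snoRNAs within GAS5, 8 each within SNHG1 and TAF1D, 5 within EIF4A2, 4 each within SNHG12 and SNHG17, and a single one within SNHG6, SNHG8, SNHG15 or DANCR. Grouped by what they carry, 5 members are protein-coding hosts, 11 are noncoding hosts mainly of box C/D snoRNAs, 11 are noncoding hosts mainly of box H/ACA snoRNAs, 4 are noncoding hosts of a scaRNA, and CYTOR, SNHG27 and SNHG28 have none annotated in RefSeq. One snoRNA each of 7 hosts is printed to show what the 2 kinds look like, since these hosts carry the results that follow. Sequences are from the GENCODE release 29 transcripts on GRCh38, written 5′ to 3′, with box C (TGATGA) and box D (CTGA) in capitals for the box C/D snoRNAs and the ACA near the 3′ end in capitals for the box H/ACA snoRNAs. The first 3 are the box C/D snoRNAs SNORD27 of SNHG1 (chr11:62855012-62855083, minus strand), SNORD50B of SNHG5 (chr6:85677589-85677658, minus strand) and SNORD12C of ZFAS1 (chr20:49278940-49279028, plus strand). The other 4 are the box H/ACA snoRNAs SNORA13 of EPB41L4A-AS1 (chr5:112161485-112161617, plus strand), SNORA24 of SNHG8 (chr4:118279190-118279320, plus strand), SNORA9 of SNHG15 (chr7:44985378-44985510, minus strand) and SNORA71A of SNHG17 (chr20:38427309-38427442, minus strand).
SNORD27: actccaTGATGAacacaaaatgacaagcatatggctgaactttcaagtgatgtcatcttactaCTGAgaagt
SNORD50B: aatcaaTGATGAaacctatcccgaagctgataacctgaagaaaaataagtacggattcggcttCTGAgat
SNORD12C: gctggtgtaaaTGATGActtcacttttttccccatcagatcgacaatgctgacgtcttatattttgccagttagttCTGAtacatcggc
SNORA13: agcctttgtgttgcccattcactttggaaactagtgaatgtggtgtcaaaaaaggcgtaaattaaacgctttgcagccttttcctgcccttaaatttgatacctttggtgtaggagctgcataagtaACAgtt
SNORA24: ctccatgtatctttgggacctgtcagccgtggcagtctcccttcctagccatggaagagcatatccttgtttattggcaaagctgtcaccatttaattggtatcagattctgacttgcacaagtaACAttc
SNORA9: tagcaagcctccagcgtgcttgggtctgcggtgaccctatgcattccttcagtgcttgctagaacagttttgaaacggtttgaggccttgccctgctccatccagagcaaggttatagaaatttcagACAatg
SNORA71A: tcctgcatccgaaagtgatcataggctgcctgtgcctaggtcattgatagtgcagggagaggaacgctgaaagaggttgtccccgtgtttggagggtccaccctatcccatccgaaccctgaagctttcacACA
Among snoRNAs within the members outside SNHG14 whose GENCODE sequence was searched, the exact letters of both boxes were found in 16 of 24 box C/D snoRNAs. The ACA was found in 25 of 30 box H/ACA snoRNAs. The 10 box C/D snoRNAs that RefSeq places within GAS5 and SNORD87 of SNHG6 had no sequence there and are not among the 24.

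Promoters in the RefSeq table (GRCh38.p14) were matched for 30 symbols, and SNHG6, SNHG9, SNHG15 and SNHG25 were not matched. The pyrimidine-rich word CTTTC, its relatives CTTTT and also CTCTT, and the words TTTCC and likewise TTTTC were searched on the sense strand within 10 bases on either side of the start; they overlap one another, so a promoter was counted once. At least 1 word was found in 14 of 30 member promoters, against 10.8% of 35116 promoters in the table. The E-box word CACGTG, which reads the same on both strands, was searched in the whole 300-base window and was found in 1 of 30, that of SNHG7, against 7.26% of all. Below are 60 bases around the start of 6 members, 30 on either side, with the words in capitals. EEF2 (chr19:3985434-3985493, minus strand), TPT1 (chr13:45341154-45341213, minus strand), ZFAS1 (chr20:49278612-49278671, plus strand) and SNHG5 (chr6:85678704-85678763, minus strand) hold a word at or just after the start. EPB41L4A-AS1 (chr5:112160496-112160555, plus strand) and SNHG17 (chr20:38435299-38435358, minus strand) hold none of these letters there.
EEF2: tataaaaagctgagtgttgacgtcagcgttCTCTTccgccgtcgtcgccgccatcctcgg
TPT1: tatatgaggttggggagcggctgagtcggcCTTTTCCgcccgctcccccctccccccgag
ZFAS1: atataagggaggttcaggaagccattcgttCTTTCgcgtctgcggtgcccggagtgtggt
SNHG5: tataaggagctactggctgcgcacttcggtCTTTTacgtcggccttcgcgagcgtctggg
EPB41L4A-AS1: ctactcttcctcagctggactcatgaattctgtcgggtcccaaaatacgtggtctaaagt
SNHG17: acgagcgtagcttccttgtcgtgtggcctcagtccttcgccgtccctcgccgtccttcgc
Of the 25 tested members with a matched promoter, 13 held a word and 12 did not. The starts are those of the promoter table, and some lie away from the GENCODE start of the member. The start used for GAS5 (chr1:173869045, minus strand) lies upstream of its GENCODE gene, which begins at 173868882. GAS5 was counted among the 12, and other starts were not searched. Combo against DMSO called 10 of the 13 higher and 2 lower, and 6 of the 12 higher and 5 lower; doc24 against DMSO called 8 and 1 of the 13, and 10 and 0 of the 12. Of all 17780 genes tested, 31.4% were called in each direction in Combo, and 20.2% higher and 22.7% lower in doc24. The difference between members with and without a word was not tested.

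The libraries held 29820617 to 45807059 counts, and 17780 of the 58735 entries passed the filter on low counts. The epithelial markers EPCAM, CDH1, KRT8, KRT18 and KRT19 and the receptor EGFR were present in all 12 libraries at 85.3 CPM or more (CPM are counts scaled by library total and TMM factor), ESR1 reached at most 2.13 CPM and PGR 0.0357 CPM. Of 6 markers of other cell types, PTPRC, PECAM1, COL1A2, VWF and CD3E stayed at or under 0.464 CPM, and COL1A1 lay between 12.2 and 22.3 CPM. Mitochondrial genes took 8.55% of counts in doc8, 6.38% in doc24, 8.49% in Combo and 4.21% in DMSO libraries, and the members together took 0.672% in doc8, 0.749% in doc24, 0.853% in Combo and 0.706% in DMSO libraries. Among the doc8 libraries, A had the highest value for 21 of the 28 tested members and B the lowest for 21. Among the Combo libraries, A was highest for 18 and B lowest for 21, B was lowest for 18 among the DMSO libraries, and among the doc24 libraries C was highest and A lowest for 16 each. The members' median deviation from the group mean was below 0 in the B library of all 4 groups (log2 -0.11 in doc8, -0.0091 in doc24, -0.061 in Combo and -0.042 in DMSO). Ribosomal protein genes deviated the same way in doc8 (median log2 deviation from the group mean 0.15 in doc8 A and -0.13 in doc8 B, against 0.13 and -0.11 for the members and about 0 for all genes). The part of this library difference in the results was not tested, and calls that depend on a single library are given beside each result.

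Per kb of exonic length, the members' levels in the DMSO libraries ran over a wide range. This length joins the exons of every annotated transcript of a gene (7269 bases for TPT1, 5990 for RACK1 and 4027 for EEF2). It can exceed the length of the RNA present and so understate a level, by an amount that differs between genes. EEF2 led with 725 CPM per kb, followed by RACK1 with 270.5, TPT1 with 90.2 and GAS5, the highest noncoding host, with 80.9 CPM per kb. EIF4A2, SNHG6, SNHG1 and SNHG8 lay close together between 52.7 and 46.3 CPM per kb. CYTOR, whose annotated exons sum to 17693 bases, came out at 0.988 and SNHG26 at 0.431 CPM per kb. The DMSO libraries of neighbours in this order overlapped in 12 of 27 pairs, so the finer order is not resolved by the spread. The order as a whole also depends on the length used.

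**Figure D1:**
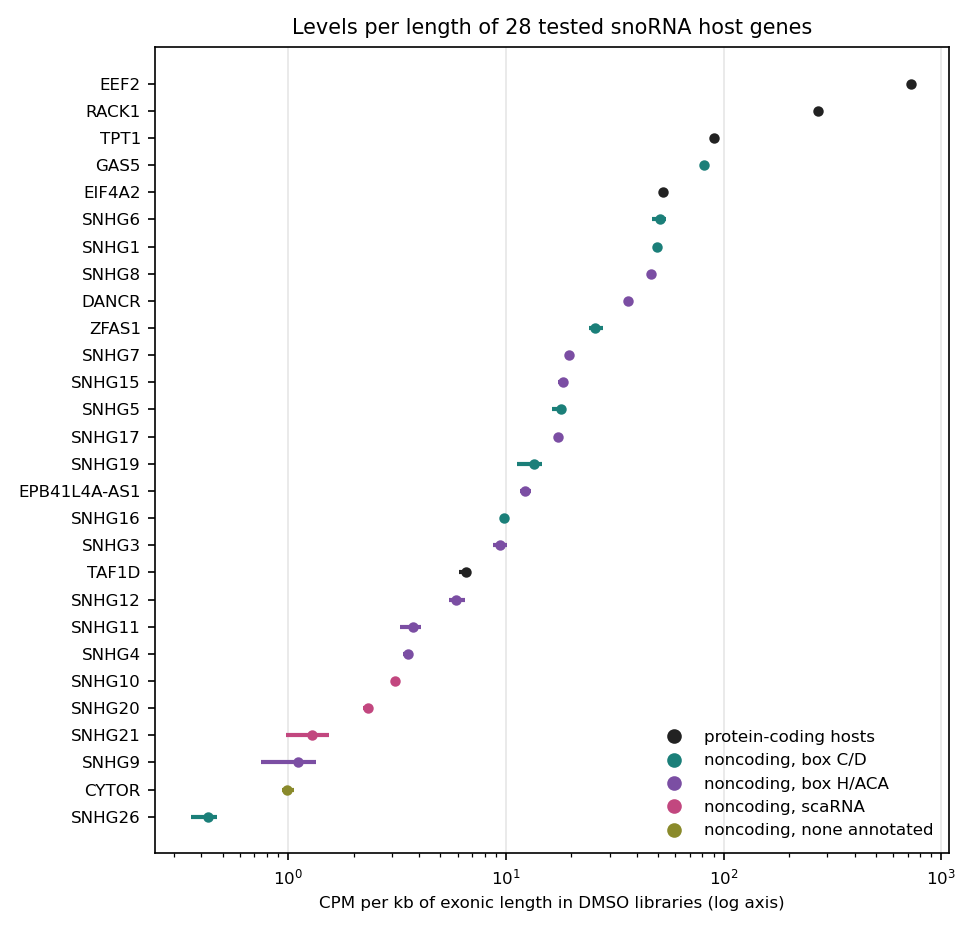
Mean level (point) and range over the 3 DMSO libraries (bar) of the 28 tested host genes, in CPM per kb of annotated exonic length on a log axis, coloured by the kind of snoRNA carried. EEF2 at 725 CPM per kb heads the order and SNHG26 at 0.431 closes it.

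Most tested host genes were higher than DMSO after 24 h of docetaxel, and calls went both ways in Combo. In doc24, 20 of the 28 tested members were higher and 1 was lower, where 20.2% of all 17780 genes were called higher and 22.7% lower. In doc8, 16 members were higher and 3 lower, beside 22.5% and 24.8% of all genes. In Combo, 17 were higher and 8 lower, beside 31.4% of all genes in each direction. The members' median log2 fold change was 0.22 in doc8, 0.37 in doc24 and 0.34 in Combo, and that of all genes was -0.021 in doc8, 0.0060 in doc24 and 0.0087 in Combo. These 3 comparisons share the DMSO libraries. A member was called when its adjusted p was under 0.05 (edgeR's quasi-likelihood test, two-sided, adjusted after Benjamini and Hochberg over all 17780 genes). Fold changes are on the log2 scale with their SE, and every p is of this kind unless another setting is named. A p marked DESeq2 comes from that program's own test, and edgeR refits adjusted p over the genes they tested.

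The doc8 count depended on the scaling. Scaled by library totals instead of TMM factors, 8 members were called higher and 7 lower in doc8. Of all 17780 genes, 2288 were called higher and 6784 lower under that scaling, against 3994 and 4415 with TMM factors. The median of all genes moved to -0.18 with library totals. The members' median was 0.062 there, which is 0.24 above that of all genes, and it was 0.24 above with TMM factors. RACK1, TPT1, DANCR, SNHG5, EPB41L4A-AS1, SNHG16, SNHG12 and CYTOR then lost their doc8 calls (adjusted p between 0.0786 and 0.657), and GAS5 (-0.18), EIF4A2 (-0.20), SNHG20 (-0.31) and SNHG10 (-0.46) were called lower. The doc24 and Combo counts were 20 and 1, and 17 and 8, under that scaling too. The 3 lower calls in doc8 fell to 1 without doc8 C or DMSO C, and to 0 without doc8 B, DMSO A or DMSO B. The 8 lower calls in Combo fell to 5 without Combo B or DMSO A.

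**Figure D2:**
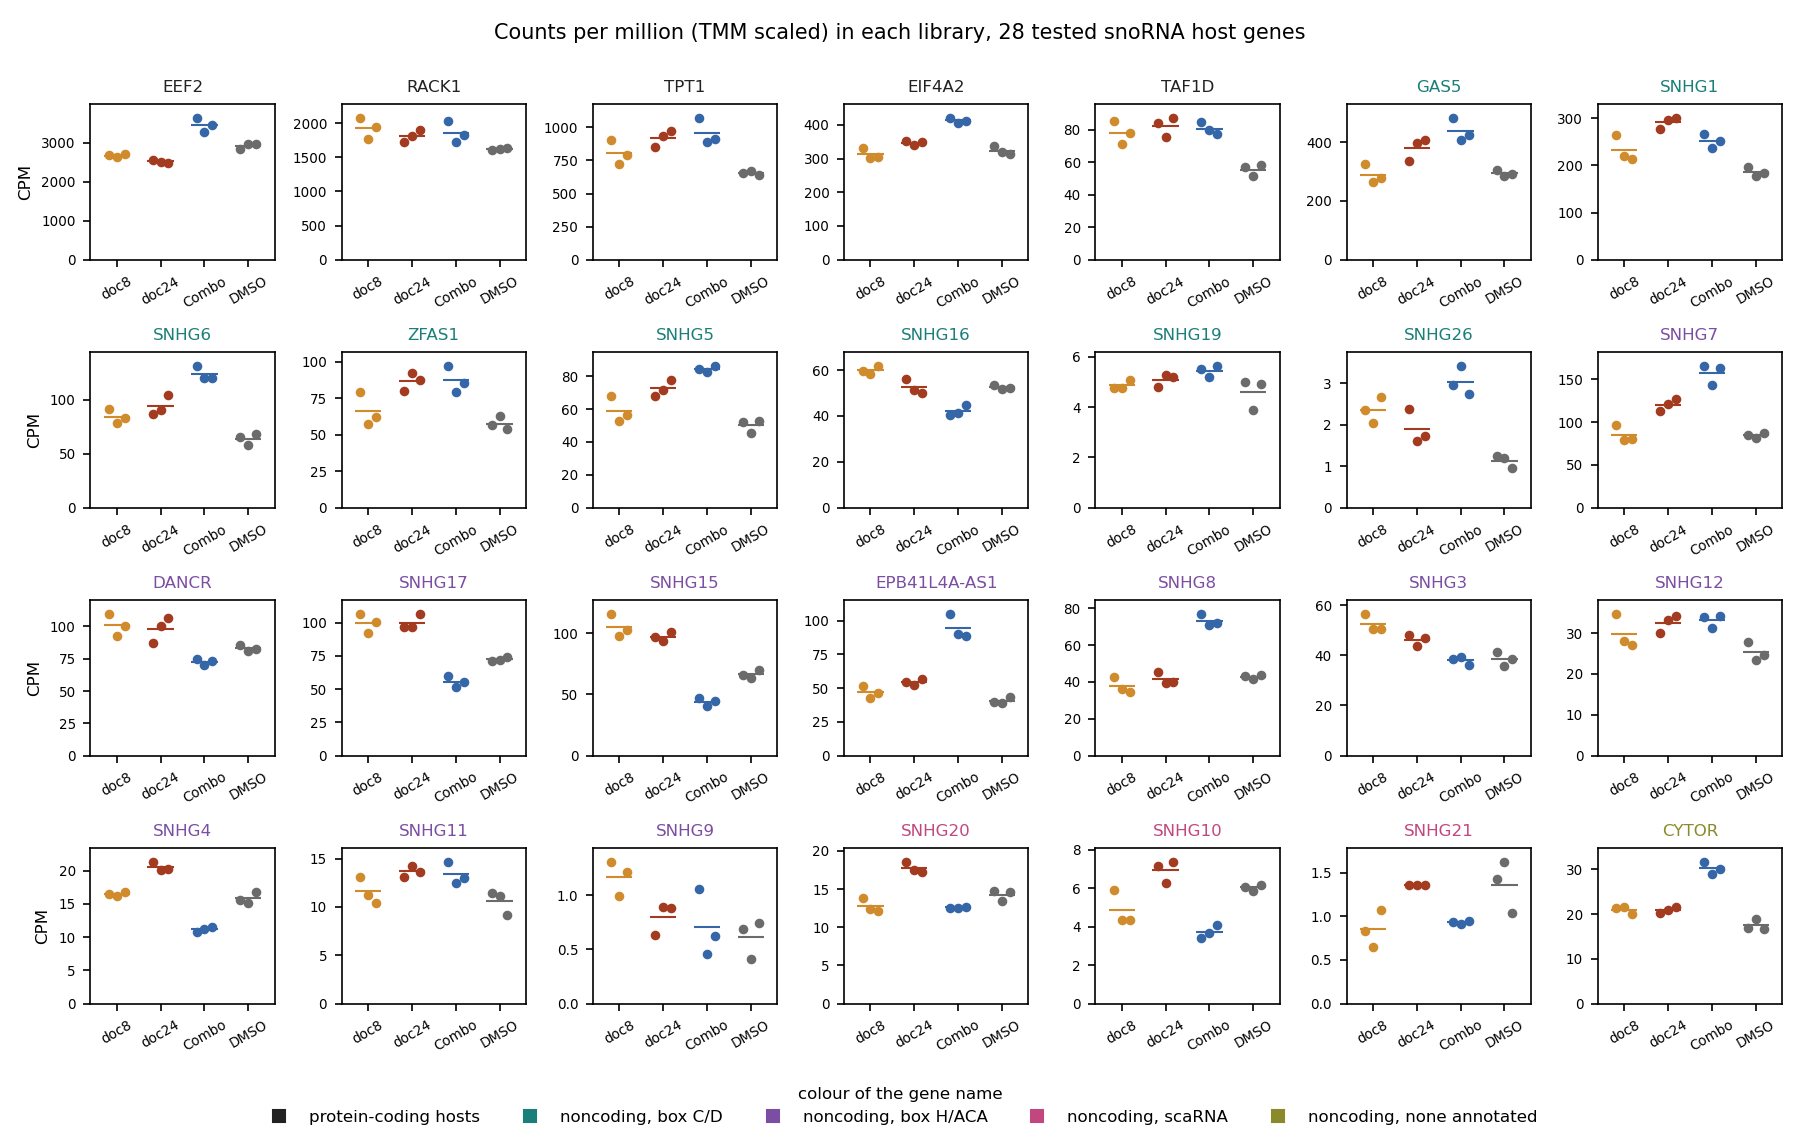
CPM after TMM scaling in each of the 12 libraries (points, A to C from left to right) with the group mean (line), one panel per tested host gene, each axis starting at 0. EPB41L4A-AS1, SNHG8, SNHG7 and CYTOR stand highest in Combo, and SNHG15, SNHG17 and SNHG4 stand lowest there.

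**Figure D3:**
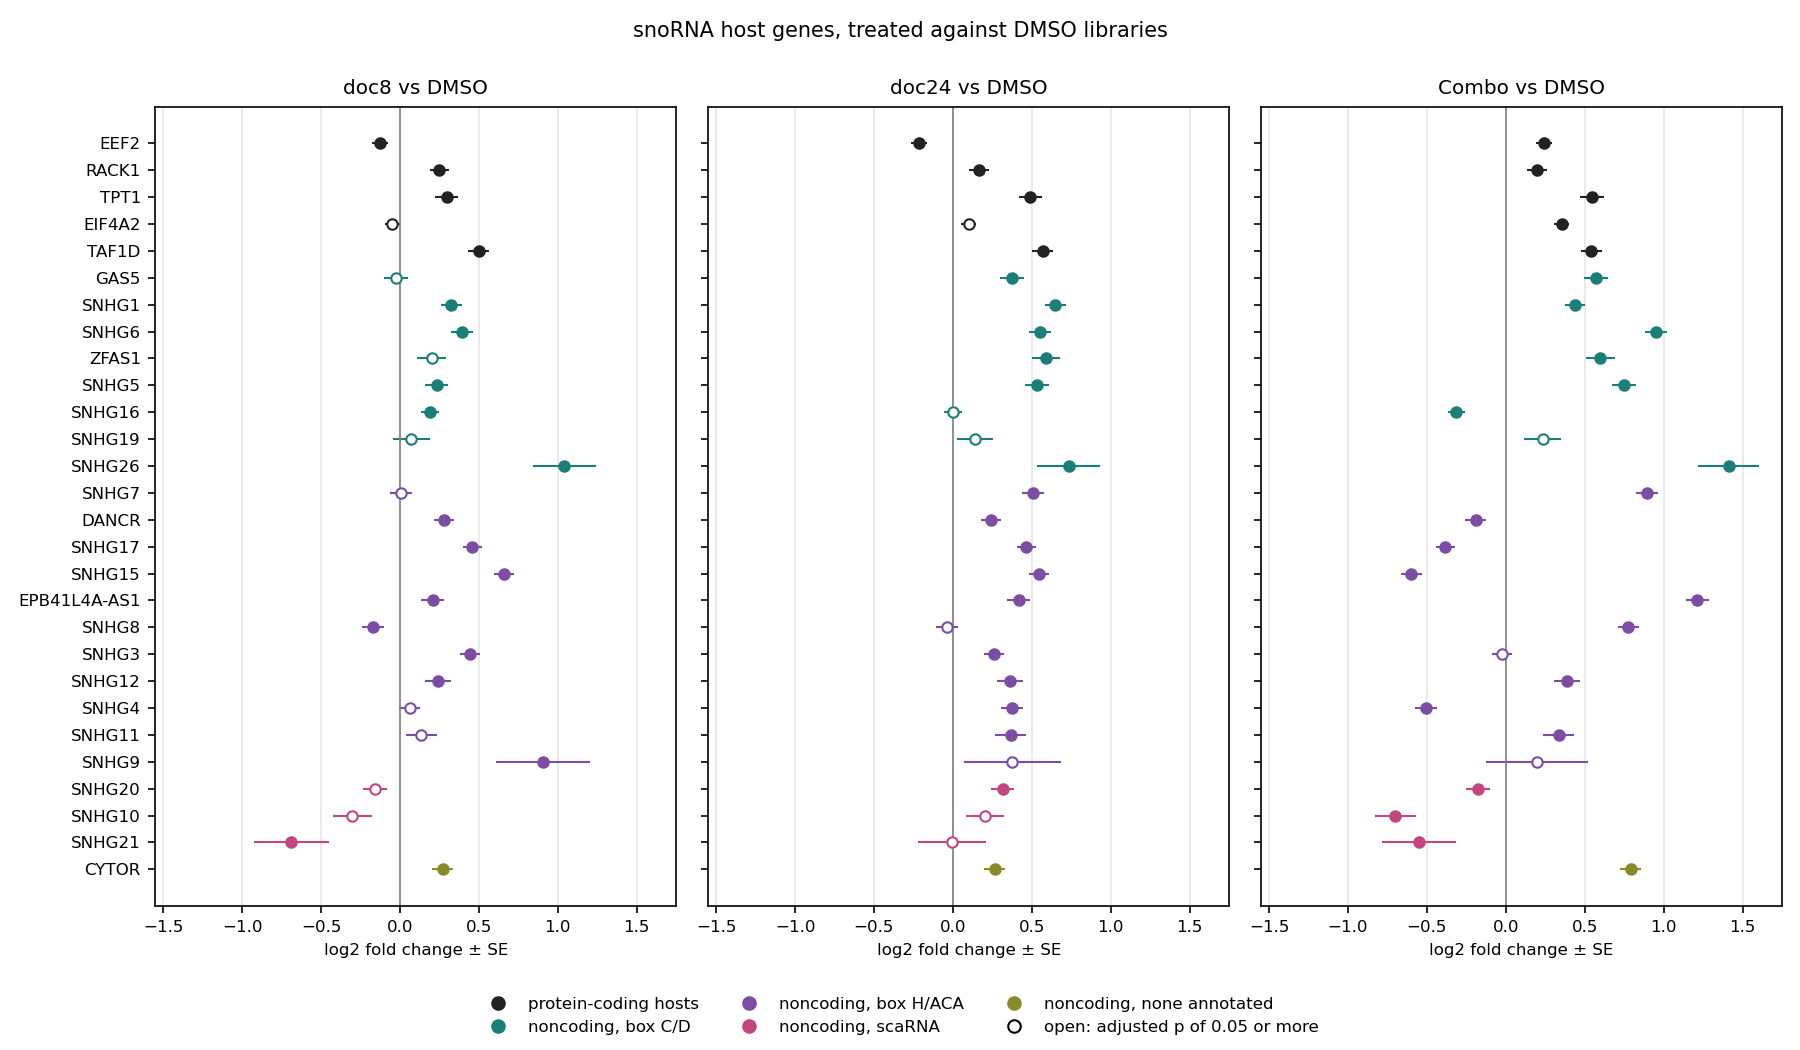
Log2 fold change against DMSO with its SE for the 28 tested host genes in doc8, doc24 and Combo, filled where the adjusted p was under 0.05. Most filled points lie right of 0 in doc24, and in Combo they spread from -0.70 for SNHG10 to 1.41 for SNHG26.

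Of the protein-coding hosts, EEF2, RACK1, EIF4A2 and TAF1D are genes of translation or ribosome synthesis. All 5 protein-coding hosts, TPT1 included, were higher in Combo, while 3 were higher and 1 lower in doc8 and again in doc24. Of all genes, 31.4% were higher in Combo, 22.5% in doc8 and 20.2% in doc24. EEF2, the elongation factor that moves the ribosome along the mRNA, had 2672, 2633 and 2697 CPM in doc8, 2566, 2516 and 2470.5 CPM in doc24, 3621, 3285 and 3451 CPM in Combo and 2828, 2954 and 2971 CPM in DMSO. Every Combo library was above every DMSO library, and every doc8 and doc24 library was below them. The log2 fold change was -0.13 ± 0.051 in doc8 (adjusted p = 0.0399), -0.21 ± 0.051 in doc24 (adjusted p = 0.00162) and 0.24 ± 0.051 in Combo (adjusted p = 0.000231). The doc8 call of EEF2 was lost whichever doc8 or DMSO library was left out (adjusted p between 0.0633 and 0.216), and with the authors' size factors (adjusted p = 0.0636).

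TPT1, the translationally controlled tumour protein, rose in all 3 treatments. It had 904, 719.7 and 791 CPM in doc8, 855, 934 and 975 CPM in doc24, 1068, 892 and 913 CPM in Combo and 656, 672 and 639 CPM in DMSO, with every treated library above every DMSO library. Its log2 fold changes were 0.30 ± 0.073 with an adjusted p of 0.00189 in doc8, 0.49 ± 0.073 with an adjusted p of 1.26e-05 in doc24 and 0.55 ± 0.073 with an adjusted p of 8.76e-07 in Combo. RACK1, a scaffold protein on the small ribosomal subunit, had 2069, 1766 and 1946 CPM in doc8, 1721, 1817 and 1906 CPM in doc24, 2027, 1730.4 and 1826 CPM in Combo and 1605, 1627 and 1629 CPM in DMSO. The treated and DMSO libraries of RACK1 did not overlap, and its log2 fold changes were 0.25 ± 0.063 in doc8, 0.16 ± 0.063 in doc24 and 0.20 ± 0.063 in Combo. Its doc24 call (adjusted p = 0.0393) was lost without doc24 B or C or any DMSO library (adjusted p between 0.0682 and 0.177). With the authors' size factors that call was lost too (adjusted p = 0.0541). The Combo call of RACK1 was lost without Combo A (adjusted p = 0.0694). EEF2, RACK1 and TPT1 have processed pseudogenes, and how the authors' counting split reads among such copies is not given.

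TAF1D, a subunit of the selectivity factor of RNA polymerase I, which transcribes ribosomal RNA, rose in all 3 treatments. Its values were 85.4, 71.6 and 78.1 CPM in doc8, 83.9, 75.6 and 87.04 CPM in doc24, 84.8, 79.7 and 77.5 CPM in Combo and 56.8, 51.4 and 58.1 CPM in DMSO. No treated library fell within the DMSO range, and the log2 fold changes were 0.50 ± 0.067 with an adjusted p of 1.92e-06 in doc8, 0.57 ± 0.066 with an adjusted p of 5.60e-07 in doc24 and 0.54 ± 0.067 with an adjusted p of 2.43e-07 in Combo. EIF4A2, a helicase of the translation initiation factor that binds the mRNA cap, had 333, 301 and 303 CPM in doc8, 351, 339 and 348 CPM in doc24, 419, 407 and 413 CPM in Combo and 336, 318 and 314 CPM in DMSO. It rose in Combo, at 0.35 ± 0.049 with an adjusted p of 1.25e-06, and stood at -0.049 in doc8 (adjusted p = 0.439) and 0.10 in doc24 (adjusted p = 0.108).

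Of the 8 tested noncoding hosts of box C/D snoRNAs, 5 rose in doc8, 6 in doc24 and 6 in Combo. The single fall was SNHG16 in Combo. Of all genes, 22.5% were called higher in doc8, 20.2% in doc24 and 31.4% in Combo. GAS5, the host with the most snoRNAs among those tested and the namesake of growth arrest, had 326, 265 and 277 CPM in doc8, 336, 397 and 409 CPM in doc24, 481, 407 and 424 CPM in Combo and 304, 285 and 292 CPM in DMSO. The doc24 and Combo libraries were all above the DMSO libraries, and the doc8 libraries lay on both sides of them. Its log2 fold change was 0.37 ± 0.076 with an adjusted p of 0.000367 in doc24 and 0.57 ± 0.076 with an adjusted p of 7.04e-07 in Combo, against -0.022 ± 0.076 with an adjusted p of 0.836 in doc8.

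SNHG1, whose introns hold the box C/D snoRNAs SNORD25 and SNORD27 among others, rose in every treatment. It had 264, 219.5 and 214 CPM in doc8, 277, 296 and 299.5 CPM in doc24, 266, 237 and 252 CPM in Combo and 196, 177 and 183 CPM in DMSO, with doc24 libraries highest and DMSO libraries lowest. The log2 fold changes were 0.32 ± 0.066 with an adjusted p of 0.000277 in doc8, 0.65 ± 0.066 with an adjusted p of 8.94e-08 in doc24 and 0.44 ± 0.066 with an adjusted p of 4.08e-06 in Combo. ZFAS1, host of the SNORD12 family, had 79.1, 57.4 and 62.3 CPM in doc8, 79.9, 92.4 and 87.9 CPM in doc24, 96.9, 79.1 and 85.8 CPM in Combo and 56.4, 62.9 and 53.8 CPM in DMSO. Its doc24 and Combo libraries were above every DMSO library, at 0.59 ± 0.091 with an adjusted p of 1.71e-05 in doc24 and 0.60 ± 0.091 with an adjusted p of 4.91e-06 in Combo. The doc8 libraries of ZFAS1 overlapped the DMSO range and the difference did not pass (log2 0.20, adjusted p = 0.0755), though it passed without doc8 B or DMSO B (adjusted p = 0.00815 and 0.0296).

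SNHG6, host of SNORD87, had 91.3, 78.02 and 82.6 CPM in doc8, 86.9, 90.4 and 104 CPM in doc24, 131, 120.2 and 120.4 CPM in Combo and 65.5, 58.2 and 68.1 CPM in DMSO. All 9 treated libraries were above all DMSO libraries, and the log2 fold changes were 0.39 ± 0.071 with an adjusted p of 7.81e-05 in doc8, 0.55 ± 0.070 with an adjusted p of 1.66e-06 in doc24 and 0.95 ± 0.070 with an adjusted p of 5.78e-11 in Combo. SNHG5, host of SNORD50A and SNORD50B, averaged 58.9 ± 7.96 CPM in doc8, 72.5 ± 4.97 CPM in doc24, 84.4 ± 1.68 CPM in Combo and 50.2 ± 3.94 CPM in DMSO (SD, n = 3 each). It was called higher in each treatment, at 0.23 in doc8, 0.53 in doc24 and 0.75 in Combo, but doc8 B lay within the DMSO range and the doc8 call was lost without doc8 A or DMSO B (adjusted p = 0.181 and 0.0764). SNHG26, a low host with at most 3.40 CPM in any library, also rose in each treatment, at 1.04 ± 0.20 in doc8, 0.73 ± 0.20 in doc24 and 1.41 ± 0.19 in Combo. SNHG19 passed in none of the 3 (adjusted p = 0.649 in doc8, 0.353 in doc24 and 0.0841 in Combo).

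SNHG16, host of the SNORD1 family, was higher in doc8 and lower in Combo. It had 59.6, 58.5 and 61.6 CPM in doc8, 56.3, 51.4 and 50.02 CPM in doc24, 40.5, 41.4 and 44.96 CPM in Combo and 53.3, 51.8 and 52.3 CPM in DMSO. Every doc8 library was above and every Combo library below the DMSO libraries, at 0.19 ± 0.056 with an adjusted p of 0.00708 in doc8 and -0.31 ± 0.057 with an adjusted p of 4.53e-05 in Combo, and doc24 overlapped DMSO (log2 0.00039). In GENCODE, 1639 of the 5362 exonic bases of SNHG16 also belong to AC015802.6 on the opposite strand, which had at most 0.458 CPM on average in any group, and the strand setting of the counts is not given.

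The 11 tested noncoding hosts of box H/ACA snoRNAs were mostly higher with docetaxel, 7 in doc8 with 1 lower and 9 in doc24 with none lower. They were split in Combo, with 5 higher and 4 lower. Beside this, 22.5% of all genes were higher in doc8, 20.2% in doc24, and 31.4% in each direction in Combo. The largest rise among the members above 5 CPM was EPB41L4A-AS1, host of SNORA13, in Combo. It had 51.8, 42.5 and 46.8 CPM in doc8, 54.2, 52.1 and 56.9 CPM in doc24, 105, 90.5 and 88.6 CPM in Combo and 39.96, 38.8 and 43.6 CPM in DMSO. Every Combo library stood above every other library, and the log2 fold change was 1.21 ± 0.071 with an adjusted p of 1.12e-12 in Combo, 0.42 ± 0.072 with an adjusted p of 6.72e-05 in doc24 and 0.21 ± 0.073 with an adjusted p of 0.0236 in doc8. Leaving out doc8 A or DMSO B ended the doc8 call (adjusted p = 0.170 and 0.0648).

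EPB41L4A-AS1 lies opposite the protein-coding gene EPB41L4A, and 1659 of its 3344 exonic bases in GENCODE overlap that gene, so without a known strand setting reads of the pair cannot be told apart. EPB41L4A itself had 4.29 ± 0.334 CPM in doc8, 6.74 ± 0.532 CPM in doc24, 12.8 ± 1.07 CPM in Combo and 11.5 ± 0.250 CPM in DMSO (SD, n = 3 each). It fell in doc8, by 1.43 ± 0.10 on the log2 scale, and in doc24, by 0.78 ± 0.093, where its antisense partner rose, and did not pass in Combo (log2 0.15 ± 0.089, adjusted p = 0.148).

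SNHG7, host of SNORA17A and SNORA17B, rose in doc24 and in Combo and did not pass in doc8. Its values were 96.6, 78.6 and 80.4 CPM in doc8, 113, 121 and 128 CPM in doc24, 165, 144 and 163 CPM in Combo and 84.8, 81.6 and 87.8 CPM in DMSO. The Combo libraries were highest and separate from the doc24 libraries, which in turn were above DMSO, at 0.89 ± 0.069 with an adjusted p of 1.33e-10 in Combo and 0.51 ± 0.069 with an adjusted p of 4.17e-06 in doc24, against 0.0086 ± 0.070 with an adjusted p of 0.938 in doc8. SNHG7 shares 1094 exonic bases with FAM69B, which was higher in Combo as well (log2 0.57 ± 0.084, adjusted p = 2.87e-06) but not in doc24 (log2 0.024 ± 0.085, adjusted p = 0.851). SNHG8, host of SNORA24, had 42.5, 36.4 and 34.6 CPM in doc8, 45.6, 39.7 and 39.9 CPM in doc24, 76.8, 70.7 and 72.1 CPM in Combo and 43.1, 41.5 and 43.6 CPM in DMSO. The Combo libraries stood clear of the others, at 0.78 ± 0.068 with an adjusted p of 9.48e-10. The doc8 call of SNHG8 as lower (log2 -0.17, adjusted p = 0.0443) was lost with DESeq2 (adjusted p = 0.0707), with the authors' size factors (adjusted p = 0.0592) and without doc8 B, doc8 C or any DMSO library (adjusted p between 0.0870 and 0.236).

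SNHG15 and SNHG17 were called in opposite directions in the docetaxel groups and in Combo. SNHG15, host of SNORA9, had 116, 98.01 and 102 CPM in doc8, 97.2, 93.5 and 101 CPM in doc24, 46.9, 40.8 and 44.4 CPM in Combo and 66.2, 63.6 and 70.1 CPM in DMSO. All 6 docetaxel libraries were above and all 3 Combo libraries below the DMSO range, at 0.66 ± 0.063 with an adjusted p of 1.43e-08 in doc8, 0.55 ± 0.062 with an adjusted p of 4.21e-07 in doc24 and -0.60 ± 0.065 with an adjusted p of 3.42e-08 in Combo. SNHG17, host of 4 snoRNAs of the SNORA71 family, had 106, 91.8 and 101 CPM in doc8, 96.7, 96.8 and 106 CPM in doc24, 60.01, 51.6 and 54.99 CPM in Combo and 71.4, 72.2 and 73.8 CPM in DMSO. Its docetaxel libraries too were all above and its Combo libraries all below DMSO, at 0.46 ± 0.060 with an adjusted p of 1.58e-06 in doc8, 0.46 ± 0.060 with an adjusted p of 2.14e-06 in doc24 and -0.38 ± 0.062 with an adjusted p of 1.07e-05 in Combo.

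SNHG4, host of SNORA74 snoRNAs, and DANCR, host of SNORA26, also had opposite calls at 24 h. SNHG4 had 16.5, 16.2 and 16.8 CPM in doc8, 21.3, 20.1 and 20.3 CPM in doc24, 10.7, 11.2 and 11.5 CPM in Combo and 15.6, 15.1 and 16.8 CPM in DMSO. The doc24 libraries were above, the Combo libraries below and the doc8 libraries within or near the DMSO range, at 0.37 ± 0.067 with an adjusted p of 0.000104 in doc24, -0.51 ± 0.072 with an adjusted p of 1.94e-06 in Combo and 0.060 ± 0.069 with an adjusted p of 0.502 in doc8. DANCR had 109, 92.5 and 100.5 CPM in doc8, 87.5, 99.99 and 107 CPM in doc24, 74.7, 69.99 and 73.6 CPM in Combo and 85.7, 81.1 and 82.4 CPM in DMSO. Its docetaxel libraries were all above and its Combo libraries all below the DMSO libraries, at 0.28 ± 0.065 in doc8, 0.24 ± 0.065 in doc24 and -0.19 ± 0.066 in Combo. The doc24 call of DANCR (adjusted p = 0.00459) was lost without doc24 C (adjusted p = 0.0587), and the Combo call (adjusted p = 0.0150) without Combo B or DMSO A (adjusted p = 0.0581 and 0.0786).

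SNHG3, host of SNORA73A and SNORA73B, had 56.3, 50.4 and 50.4 CPM in doc8, 48.2, 43.8 and 46.7 CPM in doc24, 38.4, 39.3 and 36.1 CPM in Combo and 41.3, 35.8 and 38.5 CPM in DMSO. Docetaxel libraries were above DMSO, at 0.44 ± 0.063 with an adjusted p of 4.46e-06 in doc8 and 0.26 ± 0.063 with an adjusted p of 0.00176 in doc24, and Combo libraries overlapped DMSO (log2 -0.025, adjusted p = 0.756). SNHG3 runs into RCC1, a coding gene on the same strand with 242 shared exonic bases, which was higher in doc8 (log2 0.44 ± 0.050) and doc24 (log2 0.19 ± 0.050) and lower in Combo (log2 -0.53 ± 0.052). SNHG12 lies 67.6 kb from SNHG3 on the other strand of chromosome 1 and was called higher in each treatment, at 0.24 in doc8, 0.36 in doc24 and 0.39 in Combo. The doc8 call of SNHG12 was lost without doc8 A, DMSO B or DMSO C (adjusted p = 0.234, 0.0804 and 0.0558). SNHG11, 11.2 kb from SNHG17 on the other strand of chromosome 20, rose in doc24 (0.37) and in Combo (0.33), where SNHG17 fell. SNHG9, with at most 1.30 CPM, was called higher in doc8 (log2 0.91 ± 0.30), a call lost without doc8 A or DMSO B (adjusted p = 0.0594 and 0.0714).

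The 3 tested hosts of a scaRNA were all lower in Combo, where 31.4% of all genes were called lower. SNHG10, host of SCARNA13, had 5.92, 4.36 and 4.35 CPM in doc8, 7.16, 6.29 and 7.34 CPM in doc24, 3.41, 3.66 and 4.09 CPM in Combo and 6.06, 5.87 and 6.18 CPM in DMSO. Every Combo library was below every DMSO library, at -0.70 ± 0.13 with an adjusted p of 6.21e-05, and neither doc24 (log2 0.20, adjusted p = 0.183) nor doc8 (log2 -0.30, adjusted p = 0.0522) passed, although doc8 passed without doc8 A (adjusted p = 0.00462). SNHG10 shares 391 of its 1945 exonic bases with GLRX5 on the opposite strand, a far higher gene that averaged 88.5 CPM in Combo and 91.5 CPM in DMSO (log2 -0.048 ± 0.056, adjusted p = 0.473). SNHG20, host of SCARNA16, had 13.8, 12.3 and 12.2 CPM in doc8, 18.5, 17.5 and 17.2 CPM in doc24, 12.6, 12.5 and 12.7 CPM in Combo and 14.7, 13.4 and 14.7 CPM in DMSO. The doc24 libraries were above DMSO (log2 0.31 ± 0.073 with an adjusted p of 0.00126) and the Combo libraries below (log2 -0.18 ± 0.076 with an adjusted p of 0.0455). The Combo call of SNHG20 was lost with DESeq2 (adjusted p = 0.0842) and without any single Combo library, DMSO A or DMSO C (adjusted p between 0.0786 and 0.154), and its doc8 value (log2 -0.16, adjusted p = 0.0915) passed as lower without doc8 A (adjusted p = 0.0366). SNHG20 shares 460 of its 6087 exonic bases with SEC14L1 on the same strand, which averaged 157 CPM in doc24, 177 CPM in Combo and 193 CPM in DMSO, lower in doc24 (log2 -0.30 ± 0.062) and not past the threshold in Combo (adjusted p = 0.0892). How reads of such shared bases were counted is not given. SNHG21, host of SCARNA15, never exceeded 1.62 CPM. It was called lower in doc8 (log2 -0.69 ± 0.24, adjusted p = 0.0198) and in Combo (log2 -0.55 ± 0.23, adjusted p = 0.0445), and both calls were lost without DMSO A or DMSO B, the doc8 call also without doc8 A or B, and the Combo call also without any Combo library (adjusted p between 0.0562 and 0.175 in these refits). The Combo call of SNHG21 was lost too with DESeq2 (adjusted p = 0.0845) and without the filter on low counts (adjusted p = 0.0548).

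CYTOR, a long noncoding RNA for which neither annotation used here lists a snoRNA, rose in every treatment and most in Combo. It had 21.4, 21.5 and 20.1 CPM in doc8, 20.3, 20.95 and 21.6 CPM in doc24, 31.6, 28.96 and 30.1 CPM in Combo and 16.97, 18.9 and 16.6 CPM in DMSO, with no overlap between treated and DMSO libraries. The log2 fold changes were 0.27 ± 0.068 with an adjusted p of 0.00216 in doc8, 0.26 ± 0.067 with an adjusted p of 0.00279 in doc24 and 0.79 ± 0.066 with an adjusted p of 5.03e-10 in Combo. Its near-identical relative MIR4435-2HG was also higher in Combo (log2 0.47 ± 0.065, adjusted p = 1.31e-06), and did not pass in doc24 (log2 -0.14 ± 0.066, adjusted p = 0.0958) or doc8 (log2 -0.077 ± 0.067, adjusted p = 0.364). How reads of the pair were divided is not given.

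The 7 entries that were not tested had few or no counts. Summed over the 12 libraries, SNHG25 had 49 counts, the SNHG28 entries 47 and 0, SNHG22 31, SNHG14 23, SNHG27 15 and SNHG18 0. SNHG14, the long transcript from the imprinted Prader-Willi region that carries 83 box C/D snoRNAs in RefSeq, had at most 0.124 CPM in any library.

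Between 24 and 8 h of docetaxel, 12 of the 28 tested members were higher at 24 h and 2 were lower, where 16.6% of all genes were higher and 18.3% lower. The members' median log2 fold change was 0.14 and that of all genes 0.012. SNHG7 had 120.3 ± 7.56 CPM in doc24 and 85.2 ± 9.94 CPM in doc8 (SD, n = 3 each), at 0.50 ± 0.070 with an adjusted p of 6.05e-06. SNHG20 averaged 17.8 ± 0.676 CPM in doc24 against 12.8 ± 0.906 CPM in doc8, at 0.47 ± 0.075 with an adjusted p of 2.79e-05. GAS5 (0.40 ± 0.076), ZFAS1 (0.39 ± 0.090), SNHG1 (0.32 ± 0.065), SNHG4 (0.31 ± 0.068), SNHG10 (0.50 ± 0.12) and SNHG5 (0.30 ± 0.075) were also higher at 24 h. SNHG16 (-0.19 ± 0.055) and SNHG3 (-0.18 ± 0.062) were lower at 24 h, and all 3 tested scaRNA hosts were higher.

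The doc24 against doc8 split also moved with the scaling. With library totals 18 members were called higher and none lower, and the median of all genes rose to 0.14. Of all 17780 genes, 5392 were called higher and 1655 lower under that scaling, against 2947 and 3261 with TMM factors. Without doc24 C or doc8 B the count of higher calls was 8, and the 2 lower calls became 1 without doc24 B, doc8 A or doc8 C and 0 without doc24 C. The calls of EIF4A2 (0.15) and EPB41L4A-AS1 (0.21) were lost without doc24 A, doc24 C, doc8 B or doc8 C (adjusted p up to 0.110 and 0.155). TPT1 (0.19) lost its call without doc24 B, doc24 C, doc8 B or doc8 C (adjusted p up to 0.230), and SNHG21 (0.68) without any doc24 library, doc8 A or doc8 B (adjusted p up to 0.135). The TPT1 call was also lost with DESeq2 and with the authors' size factors (adjusted p = 0.0537 and 0.0677), and the SNHG21 call with DESeq2 (adjusted p = 0.0536). SNHG3 lost its call without doc24 B, doc24 C or doc8 A (adjusted p up to 0.149) and SNHG16 without doc24 C or doc8 C (adjusted p = 0.0596 and 0.0506). SNHG6, SNHG8, SNHG11 and SNHG12 did not pass with all libraries and passed as higher without doc8 A (adjusted p = 0.0162, 0.00919, 0.0151 and 0.0179).

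Between Combo and doc24, which both ended with 24 h of drug, 10 members were higher in Combo and 10 lower, near the 32.1% and 31.7% of all genes called in each direction. The median was 0.018 for the members and 0.0021 for all genes. SNHG8 had 73.2 ± 3.17 CPM in Combo and 41.7 ± 3.36 CPM in doc24, at 0.81 ± 0.068 with an adjusted p of 4.50e-10. EPB41L4A-AS1 averaged 94.6 ± 8.84 CPM in Combo against 54.4 ± 2.40 CPM in doc24, at 0.80 ± 0.070 with an adjusted p of 1.08e-09. SNHG15 had 44.04 ± 3.10 CPM in Combo and 97.3 ± 3.96 CPM in doc24 (SD, n = 3 each), the largest fall of a member at -1.14 ± 0.064 with an adjusted p of 4.75e-13. These libraries did not overlap for any of the 3. CYTOR (0.53 ± 0.065), EEF2 (0.46 ± 0.051), SNHG6 (0.40 ± 0.069) and SNHG7 (0.39 ± 0.068) were also higher in Combo, and SNHG10 (-0.90 ± 0.13), SNHG4 (-0.88 ± 0.071), SNHG17 (-0.85 ± 0.061), SNHG20 (-0.49 ± 0.075) and DANCR (-0.43 ± 0.066) lower. By kind, the box C/D hosts were 4 higher and 2 lower, the box H/ACA hosts 3 higher and 5 lower, the scaRNA hosts 3 lower, and the coding hosts 2 higher. GAS5 was higher in Combo (log2 0.20 ± 0.076), and this call was lost without Combo A or doc24 A (adjusted p = 0.168 and 0.204). The call of SNHG5 (0.22) was lost without doc24 A (adjusted p = 0.0755), and that of SNHG21 (-0.54) without any Combo or doc24 library (adjusted p between 0.0729 and 0.0958), with DESeq2 and without the filter (adjusted p = 0.0851 and 0.0652).

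**Figure D4:**
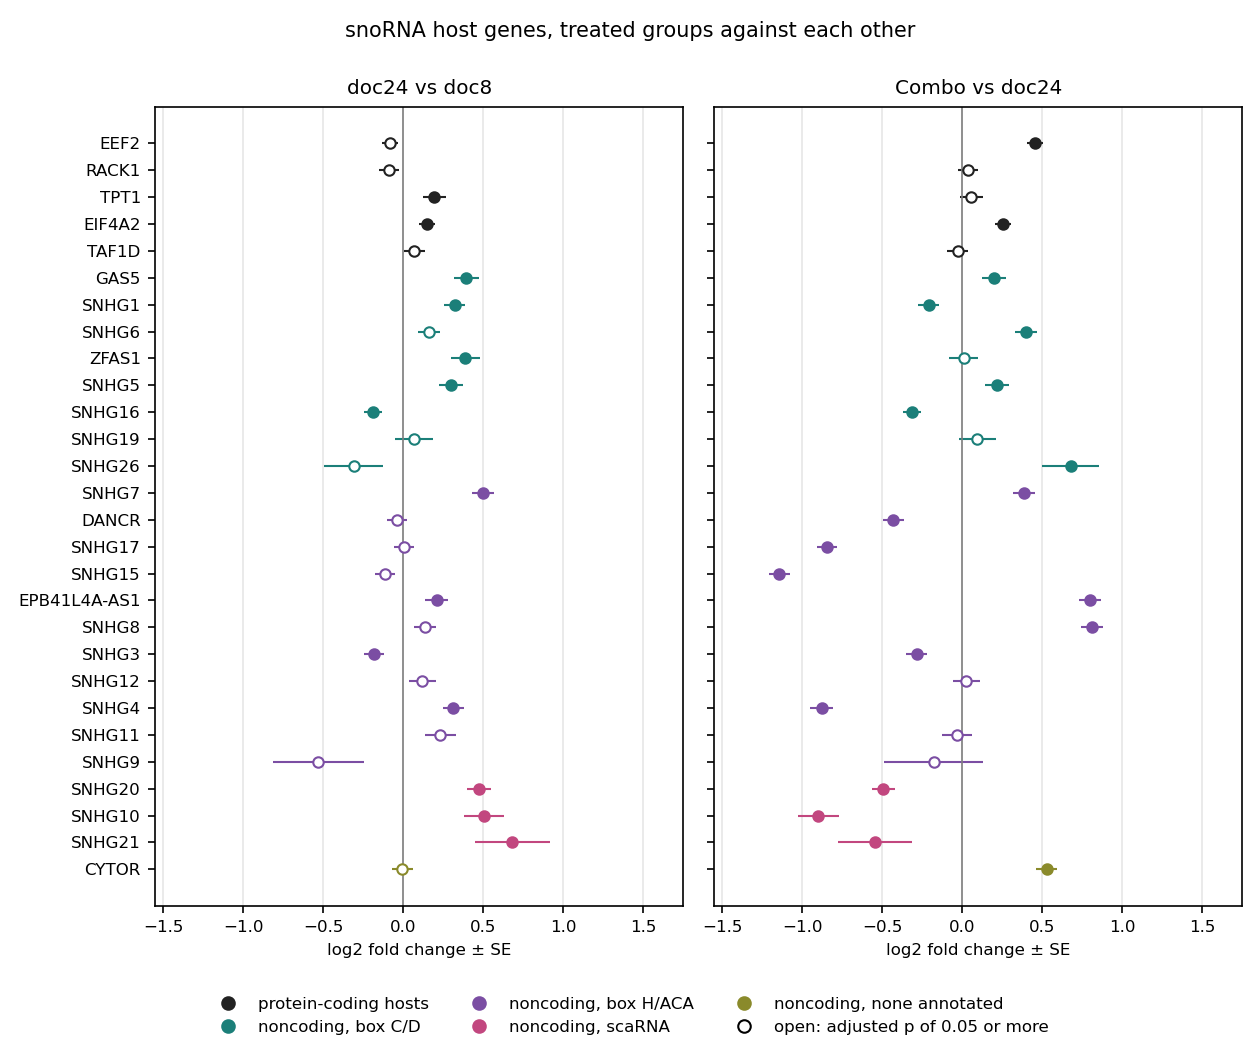
Log2 fold change with its SE of the 28 tested host genes for doc24 against doc8 and for Combo against doc24, filled where the adjusted p was under 0.05. In the Combo panel the points run from -1.14 for SNHG15 to 0.81 for SNHG8, while in the doc24 against doc8 panel filled points lie mostly right of 0.

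Genes of the proteins that bind and build snoRNAs were mostly called higher in doc8 and mostly lower in Combo. Beside the counts of this and the following lists stand the shares of all genes, 22.5% higher and 24.8% lower in doc8, 20.2% and 22.7% in doc24, and 31.4% in each direction in Combo. Of the 4 core proteins of box C/D particles, FBL, NOP56, NOP58 and SNU13, 4 were higher in doc8, 3 in doc24 and none in Combo, where all 4 were lower. FBL is the methyltransferase of these particles, and its log2 fold change was 0.58 ± 0.061 in doc8, 0.18 ± 0.061 in doc24 and -0.15 ± 0.061 in Combo. NOP58 stood at 0.48 ± 0.052 in doc8, 0.34 ± 0.052 in doc24 and -0.60 ± 0.053 in Combo. Of the 4 box H/ACA core proteins, 4 were higher in doc8 and 2 in doc24, and in Combo 1 was higher and 2 lower. DKC1, the pseudouridine synthase, was at 0.33 ± 0.044 in doc8, 0.11 ± 0.044 in doc24 (adjusted p = 0.0547) and -0.69 ± 0.044 in Combo (adjusted p = 5.25e-12). The 11 assembly factors counted 6 higher and 1 lower in doc8, 4 higher in doc24, and 1 higher and 8 lower in Combo, where NOLC1, a chaperone of snoRNPs, fell by 0.97 ± 0.049 on the log2 scale.

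Other protein-coding snoRNA hosts, 18 genes that are no members, counted 13 higher and 1 lower in doc8, 8 higher and 3 lower in doc24, and 2 higher and 15 lower in Combo, with medians of 0.36 in doc8, 0.12 in doc24 and -0.50 in Combo. NOP56 and DKC1 are in this list and in the core lists. WDR43, a ribosome synthesis factor, was at -0.82 ± 0.058 in Combo, and NCL, the nucleolar protein nucleolin, at 0.56 ± 0.046 in doc8. The 83 tested cytosolic ribosomal protein genes counted 77 higher in doc8, 68 in doc24 and 62 in Combo, with 3 lower in Combo, and medians of 0.42 in doc8, 0.34 in doc24 and 0.28 in Combo. Of 14 tested other 5′ TOP genes, 8 were higher and 3 lower in doc8, 5 and 3 in doc24, and 9 and 1 in Combo. EIF4B, an initiation factor, was at 0.41 ± 0.048 in Combo and -0.29 ± 0.048 in doc24, and PABPC1, the poly(A)-binding protein, was lower in doc8 (-0.35 ± 0.050) and doc24 (-0.37 ± 0.050). IPO7 is listed among both the 5′ TOP genes and the other hosts.

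Because several hosts are known decay substrates, 14 factors of nonsense-mediated decay were counted as well. They were 5 higher and 4 lower in doc8 and 4 higher and 5 lower in doc24, near the shares of all genes, and 1 higher and 10 lower in Combo, with a median of -0.30 in Combo. UPF1, the helicase of the pathway, was at -0.39 ± 0.048 in Combo. Of 6 coding transcripts known as substrates of this decay, 3 were higher and 1 lower in doc8, 5 higher in doc24 and 5 higher in Combo. ATF3, a stress transcription factor, stood at 1.40 ± 0.078 in doc24, 0.92 ± 0.079 in Combo and -0.29 ± 0.085 in doc8, and GADD45A, a growth arrest gene, at 1.12 ± 0.050 in doc24, 0.92 ± 0.050 in Combo and 0.47 ± 0.050 in doc8. What part any of these genes had in the level of the hosts was not tested.

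**Figure D5:**
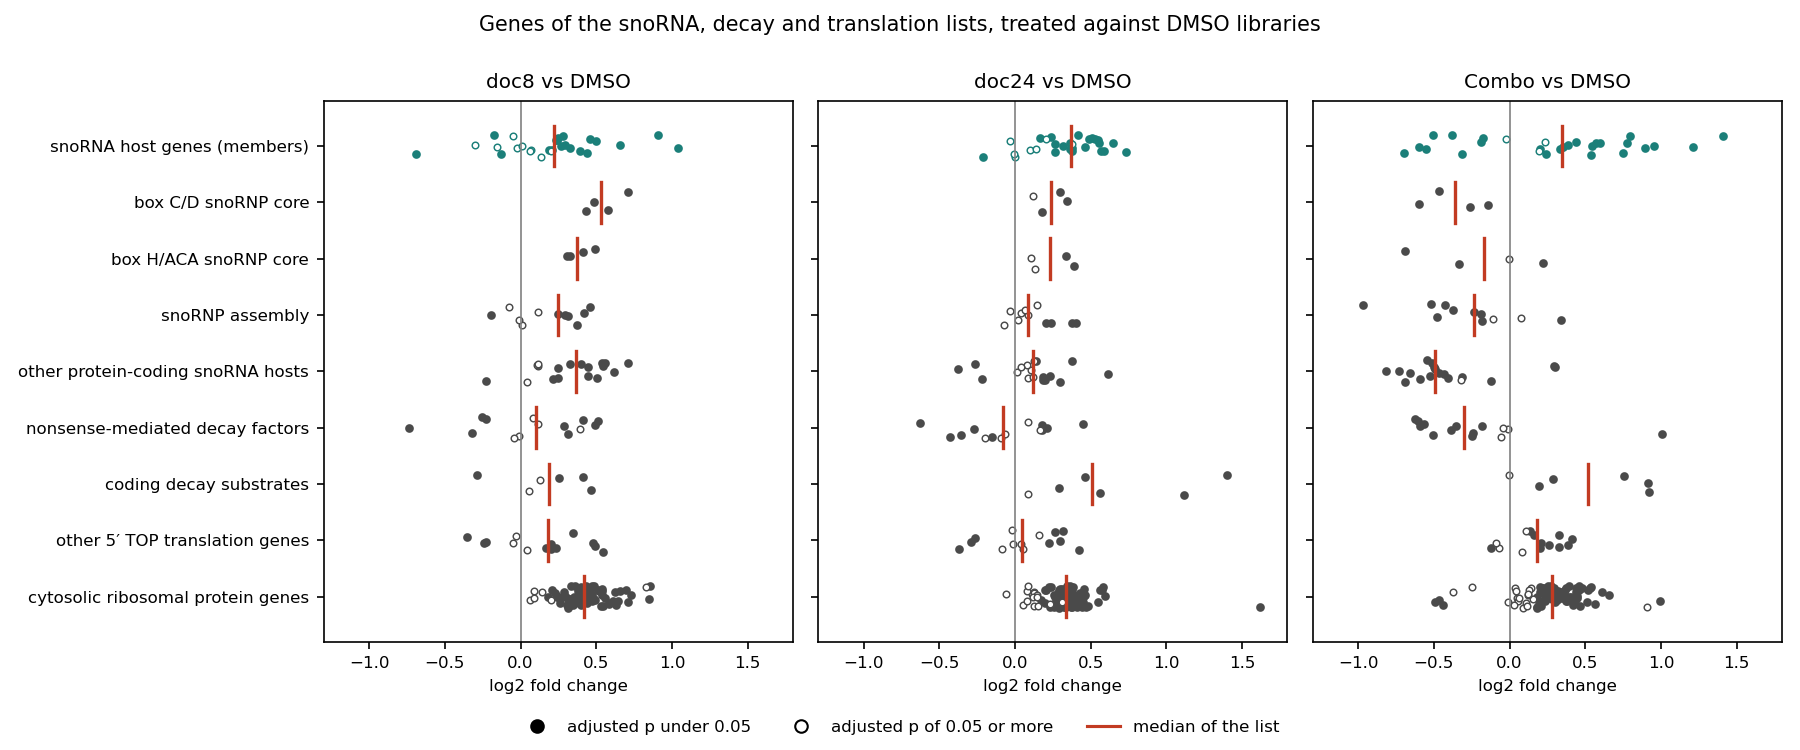
Log2 fold change against DMSO of each tested gene in the host gene set and in 8 related lists (points, filled where the adjusted p was under 0.05) with the list median (red line). The medians of the core, assembly and other host lists lie right of 0 in doc8 and left of 0 in Combo, while the median of the members stays right of 0 at 0.22, 0.37 and 0.34.

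Among tested genes outside the members, those whose log2 CPM followed GAS5 most closely over the 12 libraries were CCNB1IP1 (Pearson r = 0.976), ANAPC16 (0.976), EFNA1 (0.971), SGCE (0.969) and STARD10 (0.968). The other members were left out of this ranking. The 12 libraries form 4 groups, so the points share their group as well as their library, and no p is given. The snoRNAs themselves were hardly sampled in poly(A) RNA: of 450 entries named as snoRNAs or scaRNAs, 142 had a count in any library, 28 were tested, and together they took 413 to 990 counts of a library.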

How the data were processed

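Poly(A) RNA of 12 MDA-MB-468 libraries was measured by RNA-seq. The authors deposited raw counts for each gene, 1 file per library; fastp, HISAT2 2.0.5, DESeq2 and the build hg38 are named, with no role, per the submitters' processing notes. Counting program, annotation and strandedness were not given in the sources used here. Another table holds a signal that the authors made by dividing counts by a size factor per library, and it was used for an alternative scaling. Of 58735 entries, 58708 matched GENCODE release 29, which gave exonic lengths and overlaps. Entries that passed edgeR's filterByExpr (minimum count 10) were fitted with edgeR 4.0.16 (R 4.3.3): TMM factors of 0.917 to 1.047, 1 mean per group over all 12 libraries, glmQLFit and two-sided glmQLFTest, Benjamini-Hochberg over 17780 genes, threshold 0.05. The steps were tested on simulated data. Totals of 29820617 to 45807059 counts per library give the depth, and replicate libraries differed beyond counting noise (chi-square per degree of freedom 3.24 to 16.2), so all were kept as replicates. Alternatives were library totals, the authors' size factors, DESeq2 1.42.0, no filter, only the 2 groups compared, a block for the library letter, and leaving out each library. Library values are given for members with the 3 largest called rises or falls in a comparison at 5 CPM or more, and for members the rule names outside the SNHG series. The members and the lists were chosen with earlier results of these data known.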

Additional observations from a re-analysis of the deposited data

Results flagged for a closer look

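In total 6 members were called in opposite directions against DMSO in Combo and in doc24. Their difference between these 2 treated groups was itself past the threshold in edgeR's quasi-likelihood test. Of all genes, 31.4% were called in each direction in Combo, and 20.2% higher and 22.7% lower in doc24. The share of all genes with such opposite calls was not counted. SNHG15 differed most, by -1.14 on the log2 scale for Combo against doc24 (adjusted p = 4.75e-13), followed by SNHG4 at -0.88 (adjusted p = 2.33e-10), SNHG17 at -0.85 (adjusted p = 3.96e-11), SNHG20 at -0.49 (adjusted p = 4.51e-06) and DANCR at -0.43 (adjusted p = 4.95e-06). These 5 were higher in doc24 and lower in Combo than in DMSO. EEF2 was the reverse, lower in doc24 and higher in Combo, and differed by 0.46 (adjusted p = 5.00e-08). In all 6 the Combo and doc24 libraries did not overlap. Opposite calls against the same DMSO libraries already make a difference between the treated groups likely. The adjusted p values and the separate libraries are therefore no added support for these members. The Combo call against DMSO of SNHG20 and that of DANCR did not hold without some single libraries, as given above. The labels give 6 cm plates and 2% FBS for the Combo cultures and 10 cm plates with no serum level for the docetaxel cultures, and the part of culture conditions was not tested.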

How the results depend on the processing

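Of 99 member calls in the 5 comparisons, 72 were kept under every alternative that was run and 27 were lost under at least 1, and no value changed sign with its call. Library totals gave 8 higher and 7 lower members in doc8 against DMSO, in place of 16 and 3, and no lower member in doc24 against doc8, in place of 2. Of all 17780 genes, library totals called 2288 higher and 6784 lower in doc8 against DMSO. In doc24 against doc8 they called 5392 of all genes higher and 1655 lower. The authors' size factors gave 1 lower member in doc8. Leaving out a library at a time gave 12 to 17 higher and 0 to 3 lower members in doc8, 18 to 20 higher in doc24, 16 to 17 higher and 5 to 7 lower in Combo, each against DMSO, 8 to 15 higher and 0 to 2 lower in doc24 against doc8, and 8 to 10 higher and 9 lower in Combo against doc24. With a replicate block for the letters A, B and C, the counts were 16 and 3 in doc8, 20 and 1 in doc24, 17 and 7 in Combo, 14 and 2 in doc24 against doc8, and 10 and 9 in Combo against doc24. The block ended the calls of SNHG21 in Combo against DMSO (adjusted p = 0.0592) and against doc24 (adjusted p = 0.0591) and called SNHG6 and SNHG11 higher in doc24 against doc8 (adjusted p = 0.0460 and 0.0384). Over all genes tested, libraries that share a letter did not deviate together (correlations between -0.134 and 0.0552), although the B library was low for the members, so the letters were not taken as pairs. DESeq2, no filter and fitting only the 2 groups compared kept these counts within 1.5 times. The cause of the changed counts was not tested. Members under about 5 CPM (SNHG9, SNHG19, SNHG21, SNHG26) rest on few counts, and small differences there were not detectable at this depth.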

Other observations

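Of the snoRNAs and scaRNAs within the members, 8 had enough counts in poly(A) RNA to be tested. In some the log2 fold change had the sign of the host and in others the opposite sign, without passing the test in the opposite cases named here. SNORA73B, within SNHG3, had 78, 65 and 66 counts in doc8 and 48, 29 and 43 in DMSO libraries A, B and C, with a log2 fold change of 1.01 ± 0.20 (edgeR's quasi-likelihood test, adjusted p = 0.000207), beside 0.44 for its host. SNORA71C, within SNHG17, had 8, 8 and 9 counts in Combo and 30, 19 and 21 in doc24, at -1.24 ± 0.38 (adjusted p = 0.00731), beside -0.85 for its host. SNORA71A, SNORA71B and SNORD99 were called higher in doc8 against DMSO (adjusted p = 0.0295, 0.0455 and 0.00655), as were their hosts SNHG17 and SNHG12. SNORA71C did not pass there (log2 0.31, adjusted p = 0.480). Outside the members, SNORA33, SNORA5C, SNORA65, SNORD3A, SNORD3B-1, SNORD14A, SNORD14E and SNORD100 were called higher in doc8 too (adjusted p between 0.00477 and 0.0308). No tested snoRNA or scaRNA was called lower in doc8 against DMSO, where 22.5% of all genes were called higher and 24.8% lower. The rise was therefore not limited to snoRNAs within the members. In Combo against DMSO, SNORA71A (log2 0.0013), SNORA71B (0.054) and SNORA71C (-0.91, adjusted p = 0.0517) did not pass, beside -0.38 for SNHG17. SNORA13, within EPB41L4A-AS1, had 3, 6 and 0 counts in Combo and 14, 5 and 3 in DMSO, at -1.03 ± 0.73 (adjusted p = 0.231), beside 1.21 for its host. SCARNA13, within SNHG10, had 16, 10 and 10 counts in Combo and 10, 6 and 12 in DMSO, at 0.57 ± 0.45 (adjusted p = 0.279), beside -0.70 for its host. SNORD104, within SNHG25, which had too few counts to be tested, was lower in doc24 than in doc8, at -1.23 ± 0.29 (adjusted p = 0.00188), and higher in Combo than in doc24, at 1.11 ± 0.29 (adjusted p = 0.00212). Whether these counts come from the snoRNAs or from unspliced host RNA was not tested. They are too few to order snoRNAs against hosts.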
